A study of Homo sapiens with 6 samples.

Results

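NOTCH receptors, their ligands and the HES, HEY and NRARP target genes were followed in RKO cells, a poorly differentiated colon carcinoma line. The set held 10 genes, found by symbol among the 27980 gene symbols counted in each library: the receptors NOTCH1, NOTCH2, NOTCH3 and NOTCH4, the ligands JAG1, JAG2 and DLL1, and the targets HES1, HEY1 and NRARP. All 10 were in the table, and 8 had enough reads to be tested. RNA was measured by RNA sequencing in 6 libraries. Of these, 3 came from cells with a stable hairpin against TRIP6, delivered by lentivirus (shTRIP6, TRIP6 knockdown), and 3 from cells with a scrambled hairpin (shControl, genotype given as WT). Both groups were kept in 5 µg/ml puromycin for 2 to 3 weeks, starting 36 h after the virus was added. TRIP6 encodes a LIM-domain adaptor of focal adhesions and the nucleus. Not given in the sources used here were 3 points: pools or clones, the number of hairpin sequences, and separate cultures for the replicates. The labels call the replicates of each group biological, without saying what was repeated. The p-values therefore measure the spread between these libraries, which may still be technical.

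NOTCH receptors are cell surface proteins that are switched on by ligands of the Jagged and Delta-like families on a neighbouring cell. Ligand binding lets an ADAM protease and then gamma-secretase cut the receptor, and the freed intracellular domain joins the DNA-binding protein RBPJ and Mastermind-like co-activators to turn on target genes. HES and HEY genes encode basic helix-loop-helix repressors, and several of them, though not all, are direct targets. NRARP, which encodes an ankyrin-repeat inhibitor of the intracellular domain, is a direct target too. In the intestinal epithelium the pathway keeps progenitors proliferating and favours the absorptive over the secretory lineage, in part because HES1 represses ATOH1.

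The promoters of 4 target genes are shown because the results below turn on how differently members of the HES and HEY families moved. RBPJ prefers the letters GTGGGAA, which were searched on both strands of RefSeq promoter windows of 300 bases (250 before to 50 after the start). Of 27305 genes with a window, 7.6% held at least 1 match. Of the 10 members 8 had a window, and HES1 alone of these held a match. Among the 12 genes of the HES, HEY and NRARP list, 11 had a window and 5 of these held a match. The 5 were HES1, HES4, HES5, HEY2 and HEYL. NRARP, NOTCH1, NOTCH2, JAG1 and JAG2 had no match in this window, which says nothing on matches elsewhere. The shorter core TGGGAA, which every GTGGGAA contains, was present in 28.1% of all genes and in 7 of the 11. The 250 bases before the start follow, 5′ to 3′ on the gene's strand (RefSeq, GRCh38.p14), with GTGGGAA or its reverse complement TTCCCAC in capitals. HES1 was read from chr3:194135898-194136147 on the plus strand, HES4 from chr1:1000098-1000347, HEYL from chr1:39639644-39639893 and NRARP from chr9:137302272-137302521, the last 3 on the minus strand.
HES1: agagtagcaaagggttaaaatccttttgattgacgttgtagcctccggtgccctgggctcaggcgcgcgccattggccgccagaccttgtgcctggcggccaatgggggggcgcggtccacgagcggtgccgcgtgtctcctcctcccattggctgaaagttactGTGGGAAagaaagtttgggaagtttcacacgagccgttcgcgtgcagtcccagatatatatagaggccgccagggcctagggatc
HES4: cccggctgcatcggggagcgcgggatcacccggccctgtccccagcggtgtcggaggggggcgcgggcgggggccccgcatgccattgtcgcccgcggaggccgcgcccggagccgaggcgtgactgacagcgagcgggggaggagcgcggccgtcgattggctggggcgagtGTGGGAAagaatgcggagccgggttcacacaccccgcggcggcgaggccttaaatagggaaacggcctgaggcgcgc
HEYL: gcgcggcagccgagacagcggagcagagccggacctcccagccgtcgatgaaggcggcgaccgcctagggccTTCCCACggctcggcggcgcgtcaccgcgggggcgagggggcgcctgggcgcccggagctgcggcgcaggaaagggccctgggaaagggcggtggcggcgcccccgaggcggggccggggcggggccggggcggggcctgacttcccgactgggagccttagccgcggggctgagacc
NRARP: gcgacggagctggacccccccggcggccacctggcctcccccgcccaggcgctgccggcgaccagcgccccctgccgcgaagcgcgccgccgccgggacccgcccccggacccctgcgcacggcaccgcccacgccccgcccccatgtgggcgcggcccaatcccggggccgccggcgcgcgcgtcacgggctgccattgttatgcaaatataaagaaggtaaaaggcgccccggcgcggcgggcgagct
The match in HES1 begins 85 bases before the start and that in HES4 77 bases before it, both on the gene's strand. The match in HEYL lies on the opposite strand, 178 bases before the start. A second TGGGAA lies in the HES1 promoter, 70 bases before the start, and another in the HEYL promoter, 99 bases before it, both on the gene's strand.

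Libraries held 31096598 to 32089298 counts in shTRIP6 and 29605764 to 30949334 counts in shControl, so that 1 count was worth 0.0314 to 0.0336 CPM (counts per 1e6 counts of the library, scaled by TMM factors). TRIP6 was at 19.8, 19.4 and 19.5 CPM in shTRIP6, against 73.9, 86.4 and 80.5 CPM in shControl. Replicates differed by more than sampling noise (chi-square over its degrees of freedom, 3.05 to 4.59 within shTRIP6 and 4.81 to 11.7 within shControl), and shControl replicate 1 stood farthest from the others of its group. Of 15473 genes tested with edgeR's quasi-likelihood test, 60.1% passed a Benjamini-Hochberg adjusted p of 0.05, 29.0% as higher and 31.2% as lower in shTRIP6, so a call alone is common in this comparison. The colon markers CDX1, VIL1, GPA33, KRT20 and EPCAM had no count in any library, and CDH1 had 0.0212 ± 0.0183 CPM in shTRIP6 and 0.272 ± 0.0406 CPM in shControl (SD, n = 3 each). KRT8 and KRT18, keratins of simple epithelia, were at 871 to 1804 CPM on average and did not pass. KRT19, another such keratin, was the 1 called gene of the 3 tested on this list, at 50.6 ± 3.15 CPM in shTRIP6 and 13.8 ± 2.27 CPM in shControl (a log2 fold change of 1.87 ± 0.10). The 10 endothelial markers, a cell type in which NOTCH genes are prominent, summed to 5.56 to 5.91 CPM in shTRIP6 and 3.43 to 4.36 CPM in shControl. EMCN and ERG were at 0 in every library, and CDH5, KDR and TEK were under 0.3 CPM on average. Of the 3 tested 2 were higher and 1 was lower. ESAM rose, at 3.83 ± 0.257 CPM in shTRIP6 and 0.816 ± 0.0515 CPM in shControl. TIE1 rose as well, at 1.51 ± 0.136 CPM in shTRIP6 and 0.778 ± 0.354 CPM in shControl. PECAM1 was lower, with no count in shTRIP6 and 1.64 ± 0.0650 CPM in shControl, and it had enough reads to be tested only through shControl. The 7 leukocyte markers summed to 236 to 245 CPM in shTRIP6 and 187 to 236 CPM in shControl. The part of these markers in the results was not tested, and in bulk RNA fewer expressing cells and less RNA per cell cannot be told apart.

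JAG1, HES1 and NRARP were at 5.40%, 4.04% and 3.95% of their shControl level in shTRIP6 cells, NOTCH1 was 3.48-fold lower, and DLL1 was 2.38-fold higher. Of the 8 tested members 7 were lower and 1 was higher, and the groups did not overlap in any of the 8, as in 65.3% of all tested genes (33.5% wholly lower and 31.8% wholly higher). At least 2-fold falls were seen in 4 members, against 10.5% of all tested genes, and at least 10-fold falls in 3, against 4.14%. A called rise of at least 2-fold was seen in 1 member, against 4.38% of all tested genes. HES1 and NRARP passed the filter on low counts only through the shControl libraries, so these counts are a description and not support for a shift of the set. The median log2 fold change was -1.26 over the 8 and 0.00 over all tested genes.

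**Figure D1:**
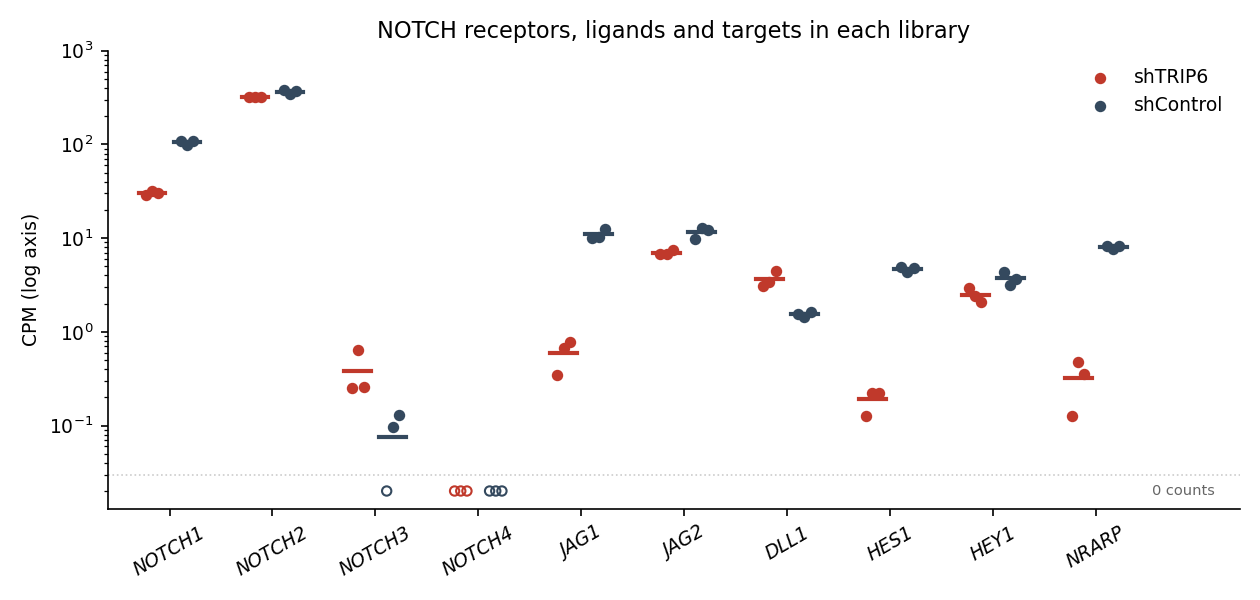
Level of each of the 10 genes in CPM on a log axis, with 1 point per library, shTRIP6 to the left of shControl, and a short line at the mean of 3 libraries. Open points below the dotted line are libraries with 0 counts, and JAG1, HES1 and NRARP lie far below their shControl libraries while NOTCH2 differs little.

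Among the receptors, NOTCH2 was the most abundant and moved least. It was at 318, 324 and 321 CPM in shTRIP6, against 379, 343 and 372 CPM in shControl. The groups did not overlap, and the fall was small (log2 fold change -0.18 ± 0.05 SE, edgeR adjusted p = 0.00186). NOTCH2 lies on the minus strand of chromosome 1 from 119911553 to 120069626 (GRCh38, protein-coding). The symbol NOTCH2NL, which RefSeq lists as a synonym of 3 partial copies of NOTCH2, moved the other way, at 52.1, 56.9 and 57.5 CPM in shTRIP6 against 37.6, 42.1 and 45.8 CPM in shControl. Reads can be shared between NOTCH2 and these copies, whose counts came to 14.2% of those of NOTCH2. Summed with NOTCH2NL, NOTCH2 fell by 0.11 on the log2 scale (adjusted p = 0.0378), so the size of its fall is uncertain.

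NOTCH1 fell clearly. This receptor gene, on the minus strand of chromosome 9 from 136494433 to 136545786, was at 29.0, 31.9 and 30.1 CPM in shTRIP6, against 108, 98.5 and 110 CPM in shControl. Every shTRIP6 library lay below every shControl library and 28.8% of the control level was left (log2 fold change -1.80 ± 0.06, adjusted p = 1.70e-14). Over the alternatives tried, its log2 fold change stayed between -1.84 and -1.75.

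NOTCH3 and NOTCH4 were close to or at the limit of detection. NOTCH3 had 8, 20 and 8 counts in the shTRIP6 libraries against 0, 3 and 4 counts in the shControl libraries. It was too low to be tested, and without the filter on low counts it passed as higher (adjusted p = 0.0431). At 0.639 CPM in its highest library it was far below NOTCH1 and NOTCH2. NOTCH4, the receptor best known from endothelium, had no count in any library, which allows up to 0.0941 to 0.0964 CPM in a shTRIP6 library and 0.0963 to 0.101 CPM in a shControl library, counting error only. Its exons overlap those of GPSM3 on the same strand.

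Per kilobase of exon, the receptor mix shifted towards NOTCH2. NOTCH2 made up 87.0%, 86.0% and 86.7% of the summed CPM per kilobase of the 4 receptors in shTRIP6, against 68.5%, 68.2% and 67.6% in shControl. NOTCH1 made up 13.2% ± 0.443 in shTRIP6 and 31.9% ± 0.454 in shControl (SD, n = 3 each), a difference of -18.64 percentage points. The libraries did not overlap, and the two-sided exact permutation test gave p = 0.1, the smallest that 3 against 3 allows. With the longest transcript as the length, the difference was -15.78 points.

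**Figure D2:**
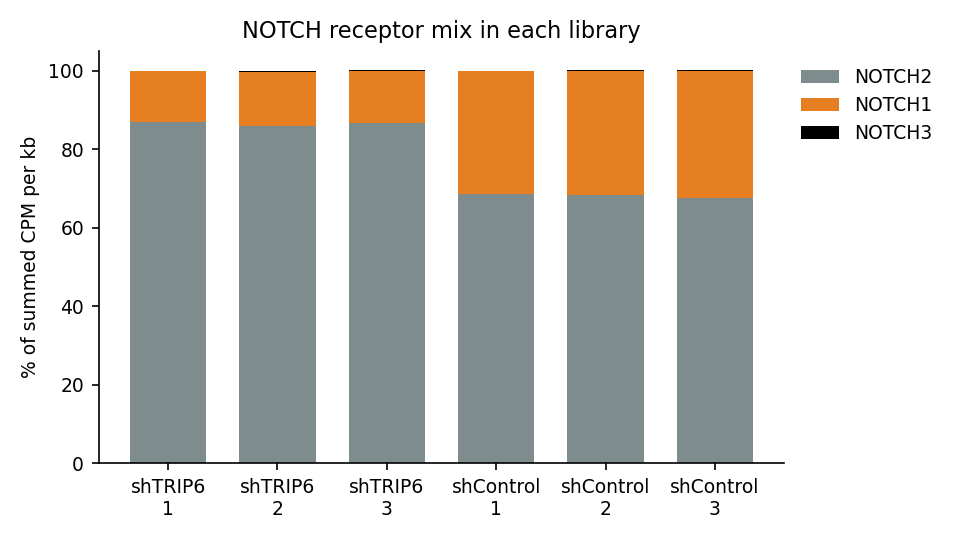
Share of each receptor in the summed CPM per kilobase of exon of NOTCH1, NOTCH2, NOTCH3 and NOTCH4, with 1 stacked bar per library, the shTRIP6 libraries first. NOTCH1 takes 12.8% to 13.7% of the bar in shTRIP6 libraries and 31.5% to 32.4% in shControl libraries, NOTCH3 at most 0.304%, and NOTCH4 was at 0 counts.

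The ligands divided in direction. JAG1, a Jagged ligand on the minus strand of chromosome 20 from 10637684 to 10673999, was at 0.345, 0.671 and 0.771 CPM in shTRIP6, against 10.1, 10.4 and 12.6 CPM in shControl. The groups stood far apart, and JAG1 fell 18.5-fold by mean CPM (log2 fold change -4.20 ± 0.23, adjusted p = 1.18e-11). JAG2, its paralog on chromosome 14 from 105140981 to 105168824, was at 6.78, 6.71 and 7.39 CPM in shTRIP6, against 9.74, 12.7 and 12.1 CPM in shControl. This fall was much smaller than that of JAG1 and again without overlap (log2 fold change -0.73 ± 0.13, adjusted p = 0.000120). JAG1 and JAG2 averaged 11.0 and 11.5 CPM in shControl; per kilobase of exon JAG1 stood at 0.0641 in shTRIP6 against 1.19 in shControl, and JAG2 at 1.09 in shTRIP6 against 1.80 in shControl.

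DLL1 was the only tested member that rose. This Delta-like ligand gene, on chromosome 6 from 170282206 to 170306565, was at 3.07, 3.42 and 4.47 CPM in shTRIP6, against 1.55, 1.44 and 1.62 CPM in shControl. The lowest shTRIP6 library was above the highest shControl library (log2 fold change 1.25 ± 0.24, adjusted p = 0.000176). The rest of the ligand list pointed the same way where it could be tested. DLL3, a Delta-like protein known to inhibit NOTCH in the same cell, was at 6.65, 5.66 and 6.33 CPM in shTRIP6 against 3.43, 4.30 and 5.17 CPM in shControl (a log2 fold change of 0.53 ± 0.18, adjusted p = 0.0143). Its call was lost without shTRIP6 replicate 1 (adjusted p = 0.0560) or shControl replicate 1 (0.0536). DLK2, a Delta-like protein without the domain that activates receptors, was at 11.3 ± 1.90 CPM in shTRIP6 and 6.86 ± 0.763 CPM in shControl (a log2 fold change of 0.71 ± 0.14). Exons of DLK2 overlap those of ABCC10 on the other strand. DLL4 had 1 to 5 counts in shTRIP6 libraries and 2 to 11 in shControl libraries, too few to test, and DLK1 had no count.

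Summed over the 7 ligand-type genes, the level per kilobase of exon was 9.71 ± 0.547 CPM in shTRIP6 and 8.22 ± 0.907 CPM in shControl. The groups did not overlap (9.40 to 10.3 in shTRIP6 libraries and 7.18 to 8.82 in shControl libraries). Summed CPM without length scaling went the other way. Every shTRIP6 library then lay below the lowest shControl library (31.2 CPM), so the direction of the sum depends on the scaling. By mean per kilobase, JAG1, JAG2 and DLL4 were lower in shTRIP6, while DLL1, DLL3 and DLK2 were higher. Of the per-kilobase sum, DLK2 held 51.6% ± 5.89 in shTRIP6 and 37.3% ± 2.20 in shControl. DLL3 held 24.6% ± 3.24 in shTRIP6 and 19.9% ± 2.23 in shControl. JAG1 held 0.658% ± 0.246 of that sum in shTRIP6 and 14.5% ± 1.36 in shControl. DLL1 held 11.7% ± 2.62 in shTRIP6 and 5.84% ± 0.768 in shControl. JAG2 and DLL1 overlapped in shTRIP6, where JAG1 was far below both, while in shControl DLL3 overlapped both JAG2 and JAG1 and DLL1 lay below them.

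HES1 and NRARP fell most among the 3 target genes of the set. HES1, on the plus strand of chromosome 3 from 194136145 to 194138732, was at 0.125, 0.224 and 0.225 CPM in shTRIP6, against 4.97, 4.40 and 4.85 CPM in shControl. Only 18 reads over the 3 shTRIP6 libraries were counted, against 435 in shControl, and 4.04% of the control level was left (log2 fold change -4.60 ± 0.32, adjusted p = 3.80e-10). NRARP, on the minus strand of chromosome 9 from 137300482 to 137302251, was at 0.125, 0.480 and 0.354 CPM in shTRIP6, against 8.23, 7.73 and 8.31 CPM in shControl. Its 30 reads in shTRIP6 stood against 743 in shControl, with 3.95% of the level left (log2 fold change -4.65 ± 0.28, adjusted p = 5.33e-11).

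HEY1 fell far less. It was at 2.95, 2.43 and 2.09 CPM in shTRIP6, against 4.37, 3.14 and 3.62 CPM in shControl, with groups that nearly touch (log2 fold change -0.57 ± 0.22, adjusted p = 0.0321). The call was lost in 4 of 14 alternatives, each of which left out a library: shTRIP6 replicate 2 (adjusted p = 0.0815), shTRIP6 replicate 3 (0.127), shControl replicate 1 (0.118) or shControl replicate 3 (0.0521). The range over all 14 was 0.0241 to 0.127.

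Beyond the members, the HES and HEY genes that rose were HEYL, HES6 and HES7. Apart from the 3 members, 6 genes of the list were tested, of which 3 were higher, 1 was lower and 2 did not pass, with a median log2 fold change of 0.40. The lower gene was HES2, which passed the filter on low counts only through shControl, so its call is no support for a fall in the family. HEYL, a HEY family repressor that carries a GTGGGAA match like HES1, was at 11.1 ± 1.10 CPM in shTRIP6 and 3.80 ± 0.185 CPM in shControl (SD, n = 3 each). It rose in every library (log2 fold change 1.55 ± 0.14, adjusted p = 2.73e-08), opposite to HES1. HES6, whose product inhibits HES1 in mice, was at 7.53, 6.65 and 7.62 CPM in shTRIP6 against 3.76, 4.94 and 6.11 CPM in shControl (a log2 fold change of 0.56 ± 0.17, adjusted p = 0.00974). HES7, known from the segmentation clock in mice, was at 3.12 ± 0.410 CPM in shTRIP6 and 1.74 ± 0.588 CPM in shControl (a log2 fold change of 0.84 ± 0.26, adjusted p = 0.00977). Its call was lost without shTRIP6 replicate 2 (adjusted p = 0.0526).

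HES4, which like HES1 has a GTGGGAA match on its own strand, did not pass. It was at 6.18, 9.01 and 6.04 CPM in shTRIP6 and 5.74, 5.62 and 6.59 CPM in shControl. These libraries overlap (log2 fold change 0.24 ± 0.17, adjusted p = 0.232). HEY2 was at 0.583 ± 0.105 CPM in shTRIP6 and 1.06 ± 0.0533 CPM in shControl and did not pass either (log2 fold change -0.85 ± 0.38, adjusted p = 0.0638), though it passed as lower with a filter of 1 CPM in 3 libraries (0.0344). HEY2 met that filter only through shControl, so the gained call is no support for a fall. HES2, named after its values were seen, had 3 reads over the shTRIP6 libraries, against 0.674 to 1.81 CPM in shControl libraries. HES5 had at most 7 reads in a library, and HES3 and HELT had none in any library.

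The order of the family differed between the groups. Per kilobase of exon, HES4 led in shTRIP6 cells at 6.33 ± 1.50 CPM, followed by HES6 at 3.57 ± 0.263 CPM and HEYL at 3.04 ± 0.301 CPM, and HES6 and HEYL overlapped. NRARP and HES1 stood at 0.181 ± 0.101 and 0.0928 ± 0.0277 CPM per kilobase there. In shControl cells HES4 was at 5.35 ± 0.476 CPM per kilobase, NRARP at 4.57 ± 0.176 CPM, HES6 at 2.42 ± 0.576 CPM and HES1 at 2.30 ± 0.147 CPM, where HES6 and HES1 overlapped. The sum over the 12 genes was 16.0 ± 1.60 CPM per kilobase in shTRIP6 and 18.4 ± 1.00 in shControl. Its libraries overlapped, at 14.7 to 17.8 in shTRIP6 and 17.3 to 19.3 in shControl. NRARP and HES1 made up 1.12% and 0.583% of the sum in shTRIP6, against 24.9% and 12.5% in shControl.

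**Figure D3:**
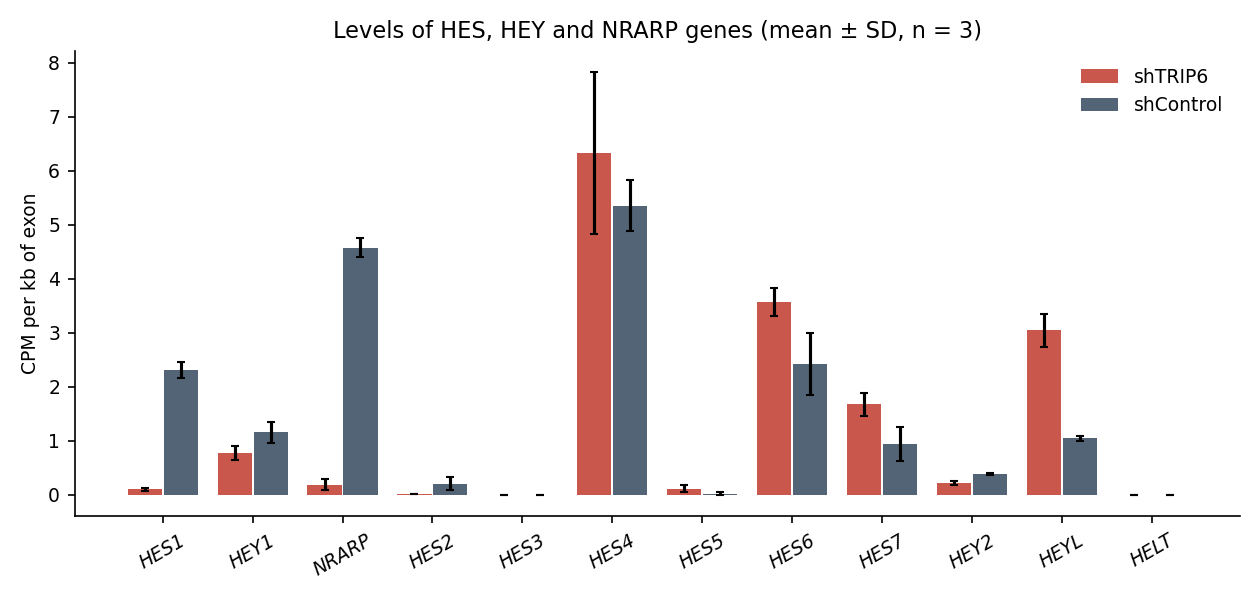
Mean level per kilobase of exon of the 12 HES, HEY and NRARP genes, with bars for shTRIP6 (left) and shControl (right) and error bars for the SD of 3 libraries. NRARP and HES1 are near the baseline in shTRIP6 while HEYL is higher there and HES4 differs by less than its spread.

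Over all 10 members, the order of levels per kilobase of exon in shTRIP6 was NOTCH2 (19.1 ± 0.176 CPM), NOTCH1 (2.92 ± 0.143), DLL1, JAG2, HEY1 (0.770 ± 0.134), NRARP, HES1, JAG1, NOTCH3 (0.0407 ± 0.0237) and NOTCH4 at 0. DLL1 and JAG2 overlapped there, as did each neighbouring pair between NRARP and NOTCH3. In shControl the order was NOTCH2 (21.7 ± 1.16 CPM), NOTCH1 (10.2 ± 0.586), NRARP, HES1, JAG2, JAG1, HEY1 (1.15 ± 0.191), DLL1 (0.476 ± 0.0269), NOTCH3 and NOTCH4. JAG1 and HEY1 overlapped, and so did NOTCH3 and NOTCH4, so NRARP and HES1 stood next after the main receptors in shControl and below HEY1 in shTRIP6.

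Components of the signalling route were measured in the same libraries. Over 10 lists, 115 genes other than the members were in the table and 94 were tested, with 25 higher, 44 lower and 25 that did not pass, and a median log2 fold change of -0.15. Over all tested genes 29.0% were higher and 31.2% lower, with a median of 0.00, and the list counts below stand beside the same shares. Some of the lower genes, HES2 and NEURL1 among them, passed the filter on low counts only through shControl. These counts are therefore a description and not support for a shift of the lists. Of the 52 other genes chosen for naming, 19 share exonic bases with a neighbouring gene, and reads of such pairs may have been counted for either.

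**Figure D4:**
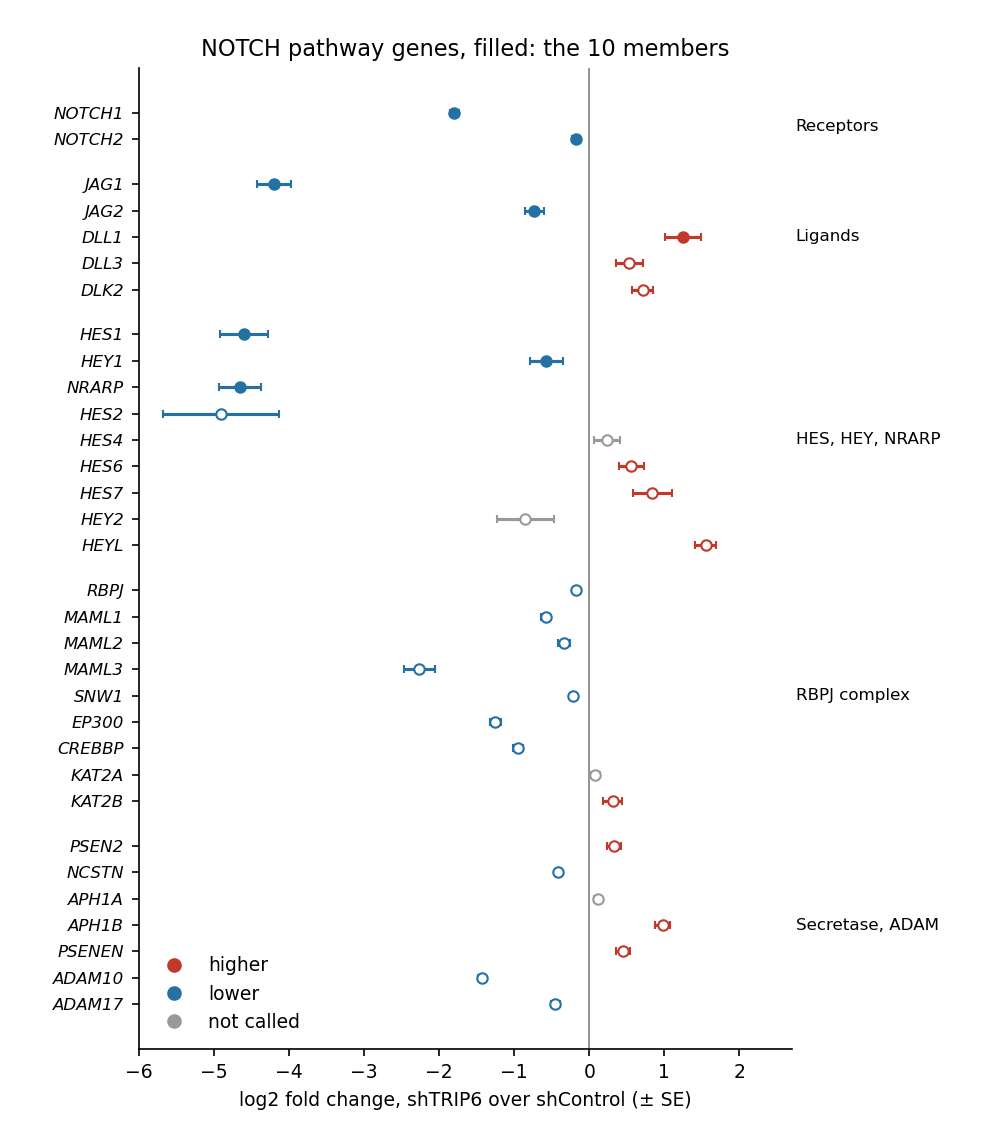
Log2 fold change of shTRIP6 over shControl with its SE for tested receptors, ligands, HES, HEY and NRARP genes, RBPJ complex genes, and the gamma-secretase and ADAM genes named in the text. Filled points are members, and JAG1, HES1 and NRARP lie beyond -4 together with HES2, which rests on 3 reads in shTRIP6, while DLL1 and HEYL lie above 1.

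The proteases that cut the receptors moved both ways. ADAM10, the main sheddase of ligand-bound NOTCH, was at 55.4, 57.7 and 61.0 CPM in shTRIP6, against 156, 157 and 157 CPM in shControl. All shTRIP6 libraries lay well below the control libraries (log2 fold change -1.43 ± 0.05, adjusted p = 2.95e-14). ADAM17, a related protease, fell by 0.45 on the log2 scale, and its exons overlap those of IAH1. Of the gamma-secretase genes, nicastrin (NCSTN) was at 83.0 ± 1.29 CPM in shTRIP6 and 111 ± 4.27 CPM in shControl and fell. PSEN2 (log2 fold change 0.33 ± 0.09), APH1B (0.98 ± 0.10) and PSENEN (0.45 ± 0.09) rose, and exons of PSENEN overlap those of U2AF1L4. APH1A, at 203 ± 9.85 CPM in shTRIP6 and 188 ± 10.4 CPM in shControl, did not pass (adjusted p = 0.0610), though it passed as higher in 4 of 14 alternatives.

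RBPJ, which carries the signal to DNA, differed little. It was at 71.9, 70.1 and 67.8 CPM in shTRIP6, against 81.4, 77.2 and 78.2 CPM in shControl (a log2 fold change of -0.17 ± 0.05, adjusted p = 0.00990). The call was lost without shTRIP6 replicate 3 (adjusted p = 0.0652) and with upper-quartile scaling (0.0535). Of its co-activators, 7 of 9 tested genes including RBPJ were lower and 1 was higher, with a median of -0.34. MAML3, a Mastermind-like co-activator, was at 1.55 ± 0.378 CPM in shTRIP6 and 7.42 ± 0.404 CPM in shControl (a log2 fold change of -2.26 ± 0.20, adjusted p = 1.44e-08), and its exons overlap those of MGST2. MAML1 was at 58.4 ± 0.875 CPM in shTRIP6 and 87.5 ± 5.18 CPM in shControl and fell. The histone acetyltransferase genes EP300 and CREBBP fell as well, to 44.1 ± 1.47 and 49.9 ± 0.512 CPM in shTRIP6, against 105 ± 10.8 and 96.1 ± 11.4 CPM in shControl. KAT2B rose by 0.31 on the log2 scale with overlapping libraries (adjusted p = 0.0329). It lost its call without shTRIP6 replicate 1 (0.0799), shTRIP6 replicate 3 (0.148), shControl replicate 2 (0.0880) or shControl replicate 3 (0.134).

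Co-repressors on the same sites included several strong falls. Of 18 tested genes 9 were lower and 3 higher, with a median of -0.14. TLE3, a Groucho-type co-repressor that HES proteins recruit, was at 4.20, 4.83 and 5.85 CPM in shTRIP6, against 49.9, 51.5 and 53.6 CPM in shControl (a log2 fold change of -3.38 ± 0.10, adjusted p = 1.41e-15). The groups did not overlap. TLE2 was at 1.15 ± 0.210 CPM in shTRIP6 and 8.78 ± 0.882 CPM in shControl, and TLE4 at 6.21 ± 0.337 CPM in shTRIP6 and 12.4 ± 1.79 CPM in shControl, and both fell. TLE1 did not pass (log2 fold change -0.12 ± 0.06, adjusted p = 0.105), though it passed as lower without shControl replicate 1 (0.0133). BEND6, a neuronal RBPJ co-repressor in mice, fell by 2.29 on the log2 scale. CTBP1, FHL1 and KDM5A rose by 0.17 to 0.35, and exons of CTBP1 and KDM5A overlap those of genes on the other strand. The call of KDM5A was lost without shTRIP6 replicate 3 (adjusted p = 0.0525).

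Enzymes that modify receptors in the secretory route also divided. LFNG, the Fringe glycosyltransferase that tunes which ligands a receptor answers to, was at 7.31 ± 0.404 CPM in shTRIP6 and 19.5 ± 2.92 CPM in shControl (a log2 fold change of -1.42 ± 0.12, adjusted p = 1.02e-08). Its relative RFNG rose to 49.8 ± 2.48 CPM in shTRIP6, against 27.5 ± 4.80 CPM in shControl, with exons that overlap those of GPS1. MFNG did not pass (adjusted p = 0.340) and stayed under 1 CPM. XXYLT1, a xylosyltransferase of NOTCH repeats, was at 10.3 ± 0.958 CPM in shTRIP6 and 31.2 ± 2.82 CPM in shControl and fell, as did FURIN, the protease of the first receptor cleavage, by 0.48 on the log2 scale. EOGT and GXYLT1 rose by 0.43 and 0.32. GXYLT2 passed as lower with overlapping libraries (adjusted p = 0.0319), and lost the call without shTRIP6 replicate 2 (0.162), shTRIP6 replicate 3 (0.0978), shControl replicate 1 (0.0841) or shControl replicate 3 (0.0636). Of the 10 tested genes 5 were lower and 3 higher, with a median of -0.18.

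Genes of ubiquitin ligases and endocytic proteins moved little as a list. Of 21 tested genes 8 were lower and 3 higher, and the median was -0.06. NEURL1, a ligase for NOTCH ligands, had 6 reads in shTRIP6 replicate 1 and none in the other 2, against 2.39 to 4.30 CPM in shControl libraries, and it passed the filter only through shControl. DTX4, a Deltex-type ligase that acts on receptors, was at 1.19, 1.98 and 1.06 CPM in shTRIP6, against 11.6, 14.8 and 18.2 CPM in shControl (a log2 fold change of -3.39 ± 0.21, adjusted p = 1.08e-10). Exons of DTX4 overlap those of MPEG1 on the other strand. DTX3L and WWP2 fell by 0.60 and 0.59. The ligand ligase MIB1 (log2 fold change -0.06 ± 0.06, adjusted p = 0.336), the NOTCH inhibitor NUMB (0.04 ± 0.07, adjusted p = 0.642) and FBXW7, which marks the intracellular domain for destruction (-0.06 ± 0.10, adjusted p = 0.620), did not pass. NEDD4L, EPN1 (exons overlap NLRP9) and CCNC rose by 0.25, 0.24 and 0.14, and the call of CCNC was lost in 8 of 14 alternatives, with adjusted p up to 0.106 in the fit without shTRIP6 replicate 1.

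**Figure D5:**
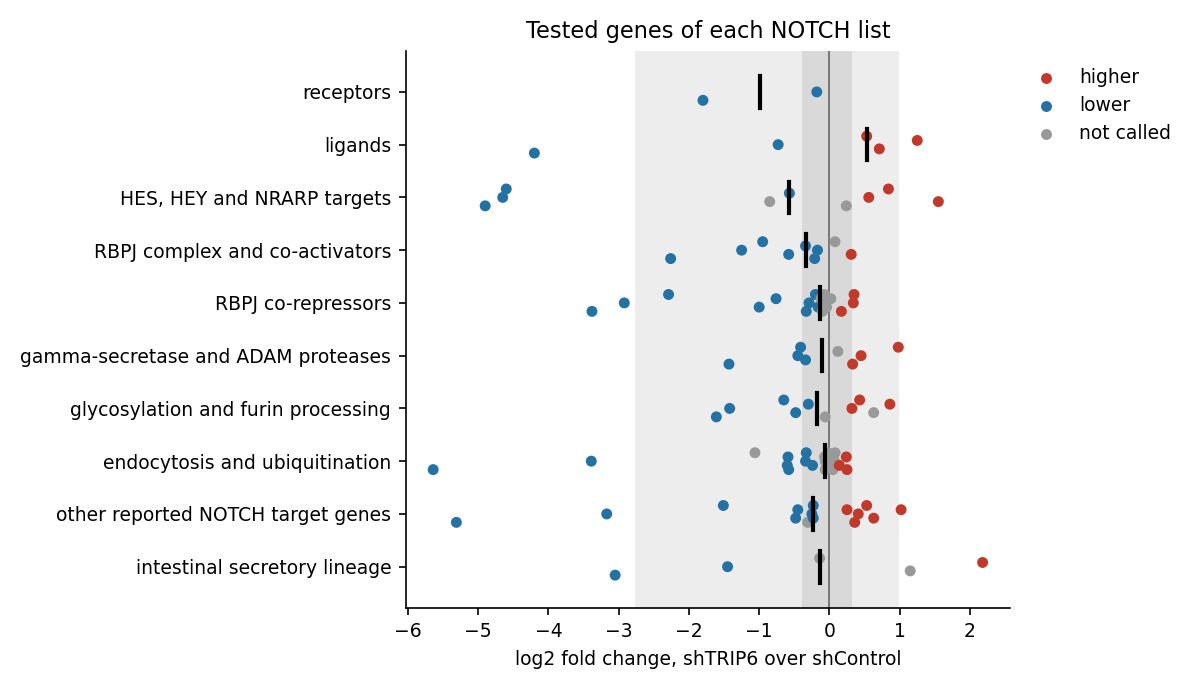
Log2 fold change of every tested gene of the 10 NOTCH lists, members included, with a black line at each list's median. The dark and light grey bands hold the middle 50% and 90% of all tested genes (-0.37 to 0.30 and -2.76 to 0.98), and most lists straddle 0 with a few genes far to the left.

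Genes reported elsewhere as NOTCH targets, outside the HES and HEY families, went in both directions as well. Of 15 tested genes 8 were lower and 6 higher, with a median of -0.23. SNAI1, among the lower genes, had 4 reads in shTRIP6 against 169 in shControl and passed the filter on low counts only through shControl. MYC was at 228, 214 and 200 CPM in shTRIP6, against 324, 279 and 293 CPM in shControl (a log2 fold change of -0.48 ± 0.06). CCND1, the cyclin D1 gene, was at 1014, 1030 and 1037 CPM in shTRIP6, against 661, 653 and 677 CPM in shControl, so it rose while MYC fell (log2 fold change 0.63 ± 0.04). Exons of CCND1 overlap those of LTO1 on the other strand. ID3 and ID1, helix-loop-helix inhibitor genes that BMP signals also drive, fell by 3.17 and 1.51 on the log2 scale, and the apoptosis inhibitor gene BCL2 by 0.45. PDGFRB, ACTA2 and TM4SF1 rose by 1.02, 0.53 and 0.41, and exons of ACTA2 overlap those of FAS. PDGFRB is also 1 of the 8 fibroblast and mural markers, whose sum was 19.3 to 21.2 CPM in shTRIP6 and 33.0 to 36.3 CPM in shControl. Most of that gap was FAP, at 0.328 ± 0.0763 CPM in shTRIP6 and 15.0 ± 1.33 CPM in shControl. Of 7 tested markers 4 were lower and 1 higher, against 31.2% and 29.0% of all tested genes. Of the lower ones, DCN had no count in shTRIP6, COL3A1 had 14, 6 and 6, and FAP had 13, 8 and 10. Each of them passed the filter only through shControl. Whether those markers bear on HEYL or PDGFRB was not tested.

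Genes of the intestinal secretory lineage, which HES1 restrains in the normal gut, were mostly silent. Of 18 genes 7 had no count in any library and 5 could be tested, of which 1 was higher and 2 were lower. ATOH1, the secretory master regulator, had 2, 11 and 7 reads in the shTRIP6 libraries and none in the shControl libraries, which is at least 6.50-fold higher against a floor of 3 counts over the shControl group. At 0.212 CPM over the shTRIP6 group it was too low to be tested, and without the filter on low counts it passed as higher (adjusted p = 0.00741). ATOH1 was named after its values were seen, so that result is no support for a rise. GFI1, a repressor of secretory cells and blood, was at 5.36, 3.23 and 4.27 CPM in shTRIP6, against 0.672, 0.834 and 1.33 CPM in shControl (a log2 fold change of 2.18 ± 0.29, adjusted p = 2.72e-06). KLF4, which marks goblet cells in mice, went the other way, at 2.92, 2.21 and 2.28 CPM in shTRIP6 against 19.1, 20.8 and 21.4 CPM in shControl (a log2 fold change of -3.05 ± 0.14). FOXA1 fell by 1.45 on the log2 scale. MUC2, TFF3, AGR2, CHGA and SPDEF, the products and regulators of mature secretory cells, had at most 2 reads in a library.

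By pattern over the 6 libraries, the genes outside these lists nearest to NRARP, the member with the largest fold change, were HTRA1, FABP3 and EFNA1 among 13805 genes with a mean of at least 1 CPM. Likeness was the Euclidean distance of centred log2(CPM + 0.5) values, 0.284, 0.312 and 0.336 for these genes, and it is set mostly by the gap between the groups. HTRA1 was at 1.29, 1.66 and 1.64 CPM in shTRIP6, against 19.6, 19.6 and 21.1 CPM in shControl. FABP3 was at 0.471, 0.671 and 0.675 CPM in shTRIP6, against 10.8, 9.66 and 10.4 CPM in shControl. EFNA1 was at 1.60, 2.21 and 1.64 CPM in shTRIP6, against 22.2, 22.8 and 25.7 CPM in shControl. All 3 had their lowest or equal lowest value in shTRIP6 replicate 1, where NRARP was lowest too.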

How the data were processed

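Total RNA of 6 RKO libraries was sequenced. The deposited values are raw read counts per gene symbol, 1 set per library, made by the authors. TopHat2, edgeR, limma and hg38 appear in the submitters' processing notes with no role or version. Not given in the sources used here: counting tool, annotation, strand setting. Strand bears on genes with overlapping exons, and multi-mapping on NOTCH2.

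Groups came from the labels. Genes with enough counts (filterByExpr, about 0.322 CPM in 3 libraries) were scaled by TMM and tested with edgeR 4.0.16 (quasi-likelihood, group as the only term, R 4.3.3) over all 15473 genes, with Benjamini-Hochberg adjusted p under 0.05 as a call, and every adjusted p in the text is from this fit unless another is named. Fold changes are shTRIP6 over shControl. The SE is the log2 fold change divided by the square root of F. The receptor share was compared with a two-sided exact permutation test over libraries. Levels per kilobase used the union of exons in GENCODE 29 (GRCh38), which matched 25770 of 27980 symbols. On data simulated from these libraries 6 times, 85.7% of genes changed 2-fold and 95.3% of those changed 4-fold were recovered, and 6.01% of calls were false. Recovery was 29% for genes changed 1.2-fold and 76.7% for those changed 1.5-fold. The simulations changed only a small part of the genes, in random directions, while 60.1% were called in the data. These rates may therefore not carry over. A floor of 3 counts was used for genes at 0. Floors cover counting error only.

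Members and gene lists were chosen with earlier results of these data known. In each list, called genes with a mean of at least 1 CPM were named, up to 4 of the largest rises and 4 of the largest falls, with RBPJ and the gamma-secretase genes whatever their result, and 1 listed gene is not reported here by name. Genes with other results (HES2, HES4, HEY2, DLL4, TLE1, MFNG, MIB1, NUMB, FBXW7, SNAI1, ATOH1, and those with few or no counts) were added after their values were seen. Replicate numbers did not pair the libraries. Alternatives were RLE, upper-quartile or no scaling, a replicate block, DESeq2 1.42.0, voom from limma 3.58.1, no filter or a stricter one (1 CPM in 3 libraries), and leaving out each library.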

Additional observations from a re-analysis of the deposited data

How the results depend on the processing

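Over 14 alternatives, NOTCH1, NOTCH2, JAG1, JAG2, DLL1, HES1 and NRARP kept their direction and their call, with log2 fold changes of -1.84 to -1.75, -0.23 to -0.14, -4.42 to -3.92, -0.83 to -0.65, 1.09 to 1.37, -4.72 to -4.37 and -5.06 to -4.26. HEY1 kept its direction and its call in 10 of 14. Without the filter on low counts 2 members were higher, since NOTCH3 then entered the test and passed. Leaving out 1 library gave 6 to 7 members lower, 4018 to 4559 genes higher and 4402 to 4919 lower over all genes, and 22 to 25 higher and 40 to 47 lower among the other listed genes. The NOTCH1 share of receptors differed by -18.88 to -18.39 points without 1 library and by -15.78 with the longest transcript as the length. With the replicate block 4377 genes were higher and 4702 lower, and 1 member was higher and 7 were lower. Correlations of same-numbered libraries were -0.0522 to -0.00601, and no library correlated best with its own number, so the numbers were not used as pairs. For the 96 other genes followed, 1283 of 1340 pairs of gene and alternative kept direction and side of the threshold, 32 lost the call, 12 gained one, and in 13 the direction turned in a gene that passed in neither fit. With upper-quartile scaling these were CIR1 (log2 fold change 0.01) and NUMBL (0.03). The others came from leaving out 1 library, over which the log2 fold change ran from -0.11 to 0.06 for CIR1, -0.10 to 0.00 for FBXW7, -0.01 to 0.04 for HDAC1, -0.15 to 0.01 for HDAC3, -0.18 to 0.02 for L3MBTL3, -0.08 to 0.03 for NUMBL and -0.11 to 0.02 for POGLUT1, and the cause was not tested. HES1 and JAG1 had 18 and 56 reads in all shTRIP6 libraries, which limits the precision of their fold changes. NOTCH3, NOTCH4, DLL4, HES5 and ATOH1 were too low for a test at this depth.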
